A study of Homo sapiens with 4 samples.

Results

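The genes described here are 6 metallothionein genes (*MT2A*, *MT1X*, *MT1E*, *MT1F*, *MT1G* and *MT1M*), the zinc transporter genes *SLC30A1* and *SLC39A10*, and the gene of the metal-responsive transcription factor *MTF1*, which are 9 of the 33694 genes in the count matrices. They were taken by gene symbol from a list that was drawn up after levels in these data were known, so the differences from untreated cells are descriptions. The cells are OVCA420, an epithelial ovarian cancer cell line, cultured without TGF-β1 (Ctrl) or for 1, 3 or 7 days with this cytokine (10 ng/mL) as an inducer of EMT. scRNA-seq in droplets, which reads the 3′ ends of polyadenylated RNA, was performed on 1 library per condition, 4 in all, so no difference between time points has a replicate check and no test was made. All 4 groups share the cell line, and by their labels the treated groups differ from Ctrl by the cytokine and by the time in it. With 1 library per condition, differences of culture or library preparation cannot be told apart from the treatment.

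Of the 10710 barcodes listed, the first 3170 in barcode order were analysed, and 3144 cells were retained (933 Ctrl, 937 1-day, 705 3-day and 569 7-day). The median number of unique molecular identifiers (UMIs, each standing for 1 captured RNA molecule) per cell ran from 30270 for Ctrl to 43553 for the 3-day library. Because of this gap in depth, shares of cells are also given after each cell was thinned to 18000 UMIs, for the 844, 900, 677 and 549 cells that were deep enough. All 9 epithelial or ovarian carcinoma markers were detected in every library, at a summed 4119 to 5649 CPM. Of these, *PAX8* (0.124 to 0.333 CPM) and *MUC16* (0.124 to 2.97 CPM) were at very low level, so they add almost nothing to the sum. Summed immune markers were at 2.13 to 6.22 CPM with *PTPRC* at 0 in the treated libraries, fibroblast markers at 0.0788 to 1.47 CPM with *COL3A1* at 0 in all, and endothelial markers at 5.37 CPM before treatment and at most 0.473 CPM after it. Most of the immune sum was *CD68*, at 1.53 CPM in Ctrl and 3.00, 4.73 and 6.19 CPM after 1, 3 and 7 days. In Ctrl most of the fibroblast sum was *LUM* (1.10 CPM), and *CDH5* (5.37 CPM) was the whole endothelial sum. G1 cells made up 25.4% of Ctrl cells and 74.7%, 48.9% and 40.4% of the cells after 1, 3 and 7 days, and pairs of libraries shared 1 to 7 barcodes.

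Metallothioneins are small, cysteine-rich cytosolic proteins that bind zinc, copper and cadmium. Zinc that enters the cytosol is bound by MTF1, a zinc finger factor that then acts on short DNA elements, the metal response elements, upstream of the metallothionein genes and of *SLC30A1*. *SLC30A1* encodes ZnT1, which exports zinc across the plasma membrane, and *SLC39A10* encodes ZIP10, which imports it. Metallothionein genes are also known to respond to glucocorticoids and to oxidative stress.

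The 6 metallothionein genes lie within 75613 bp of chromosome 16 of GRCh38 (GENCODE release 44), from 56608584 to 56684196. In this order they are *MT2A* (56608584 to 56609497), *MT1E* (56625475 to 56627112), *MT1M* (56632659 to 56633981), *MT1F* (56657731 to 56660698), *MT1G* (56666730 to 56668065) and *MT1X* (56682470 to 56684196). *MT1G* is on the minus strand and the other 5 are on the plus strand. *SLC30A1* (211571568 to 211579161) and *MTF1* (37809574 to 37859592) are on the minus strand of chromosome 1, and *SLC39A10* (195575977 to 195737702) is on the plus strand of chromosome 2.

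The promoters of the 2 most abundant metallothionein genes and of the zinc exporter are given here, because they hold the letters of the metal response element to a different degree. Each is a 300-base window of RefSeq (GRCh38.p14) from 250 bases before to 50 after the start of transcription, given 5′ to 3′ on the gene's own strand. Capitals mark matches to TGCACNC or TGCGCNC on either strand, where N is any base. RefSeq windows were matched for 5 of the 9 genes.
*MT2A*, chr16:56608334-56608633, plus strand: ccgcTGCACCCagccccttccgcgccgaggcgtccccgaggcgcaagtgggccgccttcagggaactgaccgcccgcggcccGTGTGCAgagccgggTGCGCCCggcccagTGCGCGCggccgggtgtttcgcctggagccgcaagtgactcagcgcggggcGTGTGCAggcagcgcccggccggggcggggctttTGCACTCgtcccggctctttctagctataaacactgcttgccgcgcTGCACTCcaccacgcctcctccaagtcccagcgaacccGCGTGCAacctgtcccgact
*MT1X*, chr16:56682220-56682519, plus strand: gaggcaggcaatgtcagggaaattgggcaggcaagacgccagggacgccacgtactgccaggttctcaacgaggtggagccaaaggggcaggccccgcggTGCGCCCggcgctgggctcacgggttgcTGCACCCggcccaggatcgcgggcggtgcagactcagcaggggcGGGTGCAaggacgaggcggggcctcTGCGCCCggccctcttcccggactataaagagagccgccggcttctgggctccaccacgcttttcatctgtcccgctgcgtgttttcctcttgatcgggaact
*SLC30A1*, chr1:211579112-211579411, minus strand: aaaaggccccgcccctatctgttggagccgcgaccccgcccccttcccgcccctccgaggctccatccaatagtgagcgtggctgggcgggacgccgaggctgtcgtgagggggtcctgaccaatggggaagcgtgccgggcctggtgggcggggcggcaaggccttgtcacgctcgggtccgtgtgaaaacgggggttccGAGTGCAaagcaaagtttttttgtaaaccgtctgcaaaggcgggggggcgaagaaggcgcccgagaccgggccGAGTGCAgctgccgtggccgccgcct

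The *MT2A* window held 8 matches, from 246 bases before to 30 bases after the start, and 0.0199% of 35116 promoter windows held as many. The *MT1X* window held 4, between 150 and 53 bases before the start, a number reached by 0.601% of windows. The *SLC30A1* window held 2, reached by 8.60% of windows. At least 1 match was found in 29.6% of all windows, in 1 of the 2 windows of *SLC39A10* and in none for *MTF1*. A match is a string of letters and not a measured binding site, and no binding was measured in these cells.

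*MT2A* made up almost the whole metallothionein signal and was higher at each later time point. It held 65635 UMIs in the Ctrl library, 238875 after 1 day, 387446 after 3 days and 401764 after 7 days. Levels are given as UMIs of the gene per 1000000 UMIs of the pooled cells of a library (CPM). For *MT2A* this was 2188 before treatment (95% counting interval 2171 to 2205), 7250 after 1 day (7221 to 7279), 12055 after 3 days (12017 to 12093) and 15828 after 7 days (15779 to 15877). Each library thus lay above the one before it by more than counting error. Such intervals cover counting error only and say nothing of the spread between cells or between cultures. The level was 3.31-fold of Ctrl at 1-day, 5.51-fold at 3-day and 7.23-fold at 7-day, which are log2 ratios of 1.73, 2.46 and 2.85. The 6 metallothionein genes together took 0.225% of all Ctrl UMIs, then 0.740%, 1.23% and 1.62% of the UMIs after 1, 3 and 7 days, and *MT2A* supplied 97.1% to 98.0% of them.

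*MT1X*, the second metallothionein by level, had the same order of libraries. Untreated cells had 50.6 CPM (48.1 to 53.2), and treated cells had 104 CPM (101 to 108), 196 CPM (191 to 200) and 263 CPM (257 to 269) after 1, 3 and 7 days. Its log2 ratio to Ctrl was 1.05 at 1-day (0.96 to 1.13), below that of *MT2A* (1.72 to 1.74), and it was 2.38 at 7-day (2.30 to 2.46). *MT1X* was therefore further behind *MT2A* after 1 day than after 7 days. It held 231 UMIs per 10000 UMIs of *MT2A* before treatment (220 to 243), and 144 (139 to 149), 162 (158 to 166) and 166 (162 to 170) in the later libraries. UMIs from 3′ ends count a molecule once whatever its length, so these ratios between genes are per captured molecule.

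Most of the difference in *MT1F* from Ctrl was already present after 1 day. The Ctrl level was 14.6 CPM (13.3 to 16.0), and 1, 3 and 7 days of treatment gave 43.4 CPM (41.2 to 45.7), 50.7 CPM (48.3 to 53.2) and 56.2 CPM (53.3 to 59.2). The log2 ratio to Ctrl was 1.57 at 1-day, 1.80 at 3-day and 1.94 at 7-day (1.79 to 2.10). From 1-day to 7-day the neighbouring libraries differed by log2 ratios of 0.22 (0.12 to 0.33) and 0.15 (0.04 to 0.25), against 0.73 and 0.39 for *MT2A*. Per 10000 UMIs of *MT2A*, *MT1F* held 66.7 before treatment and 59.9, 42.1 and 35.5 after it. The makeup of the metallothionein pool thus differed by library, with *MT1F* taking a smaller part of it at each later time point and *MT1X* the smallest part at 1-day. It also differed between cells within each library, as given here for Ctrl and 7-day. Per 10000 UMIs of *MT2A*, the 25% of Ctrl cells with the smallest *MT2A* share held 250 *MT1F* and 772 *MT1X* UMIs. The 25% with the largest share held 42.1 and 159. In 7-day cells *MT1F* was at 66.2 with the smallest share and 20.7 with the largest, and *MT1X* at 225 and 148. As these cells were grouped by *MT2A* itself, part of this fall is built in.

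*MT1G* was detected at low level, with 20 UMIs before treatment and 76, 132 and 123 in the treated libraries. These are 0.667 CPM (0.407 to 1.03), 2.31 CPM (1.82 to 2.89), 4.11 CPM (3.44 to 4.87) and 4.85 CPM (4.03 to 5.78), where the 3-day and 7-day intervals overlap. Its UMIs stood at 3.05, 3.18, 3.41 and 3.06 per 10000 UMIs of *MT2A* in the 4 libraries, with intervals that all overlap (1.86 to 4.71 in Ctrl and 2.54 to 3.65 at 7-day). With 20 UMIs in Ctrl its interval is wide, so a fixed ratio is not established. The ratios of *MT1X* and *MT1F*, which rest on more UMIs, differed between Ctrl and 7-day beyond counting error. The transcripts of *MT1G* and *MT2A* share a run of 65 identical bases at most, and 23 bases within the last 200 where 3′ reads fall. *MT1G* and *MT1X* share runs of 96 bases and of 21 bases, respectively. *MT2A* and *MT1X* share runs of 63 bases and of 23 bases. Whether reads of one gene were counted for another was not tested, so the level of *MT1G* is uncertain. The same limit holds for *MT1X* and its ratio to *MT2A*.

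*MT1E* and *MT1M* were at or near the limit of detection. *MT1E* had 0 UMIs in untreated cells and 4, 4 and 3 after 1, 3 and 7 days. *MT1M* had 1 UMI in untreated cells, then 0, 2 and 0. A count of 0 allows up to 3 UMIs in a library, so no difference was detectable for either gene at this depth. Of 12 further metallothionein symbols, 6 were in the matrices, and the highest level among them in any library was the 0.249 CPM of *MT1A* at 3-day. The metallothionein UMIs of these OVCA420 cells were thus almost all assigned to *MT2A*, *MT1X* and *MT1F*.

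*SLC30A1*, the zinc exporter, had a different time course from the metallothioneins. It stood at 15.3 CPM (13.9 to 16.8) without treatment, 31.4 CPM (29.6 to 33.4) after 1 day, 22.7 CPM (21.1 to 24.5) after 3 days and 22.3 CPM (20.5 to 24.2) after 7 days. It was highest at 1-day, by 1.04 over Ctrl on the log2 scale (0.88 to 1.20), and the 3-day library lay below the 1-day library by a log2 ratio of -0.47 (-0.61 to -0.33). The 3-day and 7-day levels did not differ beyond counting error, with a log2 ratio of -0.03 (-0.19 to 0.13). Among G1 cells alone the log2 ratios to Ctrl were 0.72, 0.34 and 0.21 at 1, 3 and 7 days, so the order was kept and the 1-day value was below a 2-fold difference. In these G1 cells the 3-day level was 24.8 CPM (22.3 to 27.5) and the 7-day level 22.7 CPM (19.8 to 25.8). Both intervals overlap that of Ctrl G1 cells (16.4 to 23.2). In Ctrl the level of *SLC30A1* was 19.6 CPM in G1 cells, 12.1 CPM in S cells and 15.6 CPM in G2M cells.

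*SLC39A10*, the zinc importer, differed less from Ctrl. Without treatment it stood at 18.0 CPM (16.5 to 19.6), and after 1, 3 and 7 days at 24.6 CPM (22.9 to 26.4), 24.6 CPM (23.0 to 26.4) and 28.6 CPM (26.6 to 30.8). The log2 ratios to Ctrl were 0.45, 0.45 and 0.67, and the 1-day and 3-day levels did not differ beyond counting error (0.00, interval -0.14 to 0.14). *MTF1*, the transcription factor, had 5.90 CPM (5.06 to 6.84) without treatment and 5.22 CPM (4.47 to 6.06), 8.00 CPM (7.05 to 9.04) and 8.59 CPM (7.49 to 9.81) after 1, 3 and 7 days. At 1-day, when *MT2A* was already 3.31-fold of Ctrl, *MTF1* did not differ from Ctrl beyond counting error (log2 ratio -0.18, interval -0.49 to 0.13). Its 3-day and 7-day log2 ratios were 0.44 (0.16 to 0.72) and 0.54 (0.25 to 0.84). At equal depth per cell they were 0.01 (-0.45 to 0.46) and 0.31 (-0.15 to 0.76). Thinning left 93 *MTF1* UMIs in Ctrl, 75 at 3-day and 75 at 7-day, and the wider intervals still hold the unthinned ratios. The thinned cells are therefore too sparse to decide whether *MTF1* differed.

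**Figure D1:**
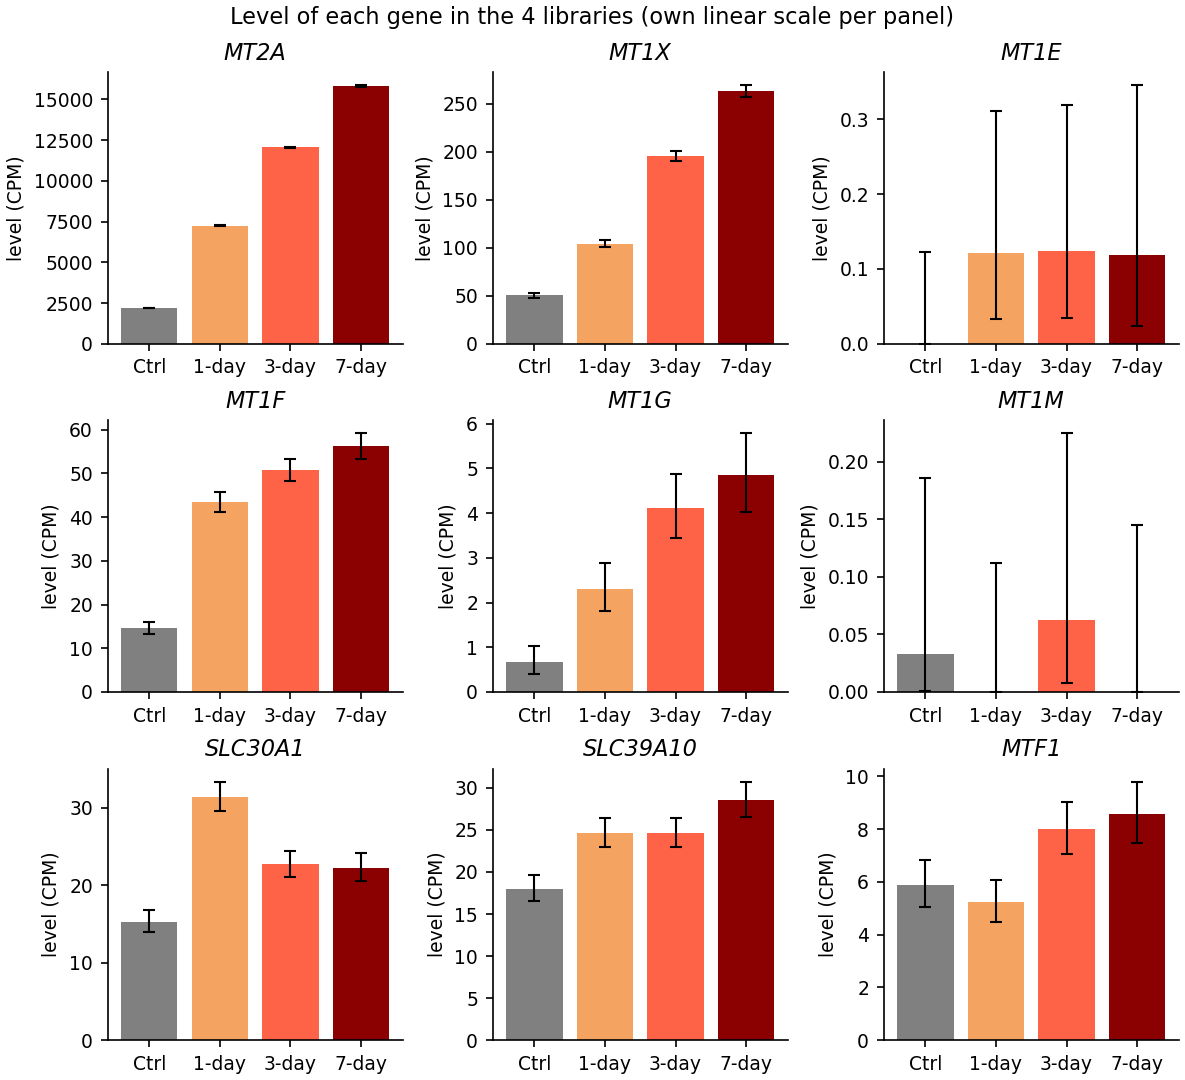
Level of each gene in CPM (y axis, linear and on its own scale in each panel) in the Ctrl, 1-day, 3-day and 7-day libraries (x axis), where bars are 1 library each and error bars are exact Poisson 95% intervals. *MT2A* and *MT1X* are higher in each later library, *SLC30A1* is highest at 1-day with 31.4 CPM, and *MT1E* and *MT1M* rest on at most 4 UMIs.

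Of the 9 genes, 5 reached 10 CPM in either library and could be counted against the background in each comparison (*MT2A*, *MT1X*, *MT1F*, *SLC30A1* and *SLC39A10*). At 1-day 4 of them were at least 2-fold higher than Ctrl, where 9.34% of 8123 genes were, and at 3-day 3 were, where 10.1% of 8207 genes were. At 7-day 3 were at least 2-fold higher, where 11.8% of 8409 genes were. The 1-day call of *MT1X* (log2 ratio 1.05, interval 0.96 to 1.13) was lost in thinned cells (0.96), in G1 cells (0.89), as a mean of per-cell CPM (0.98) and without the 10 cells of highest level (1.00, just under the limit), and that of *SLC30A1* was lost in G1 cells (0.72) and in the first part of the cells in barcode order (0.99). None was at least 2-fold lower, where 9.31%, 5.92% and 5.29% of genes were at 1, 3 and 7 days. The median log2 ratio of the 5 genes was 1.05, 1.80 and 1.94, beside -0.06, 0.04 and 0.11 over all genes counted. As the genes were chosen from these levels, the counts describe the choice and nothing is read from them.

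**Figure D2:**
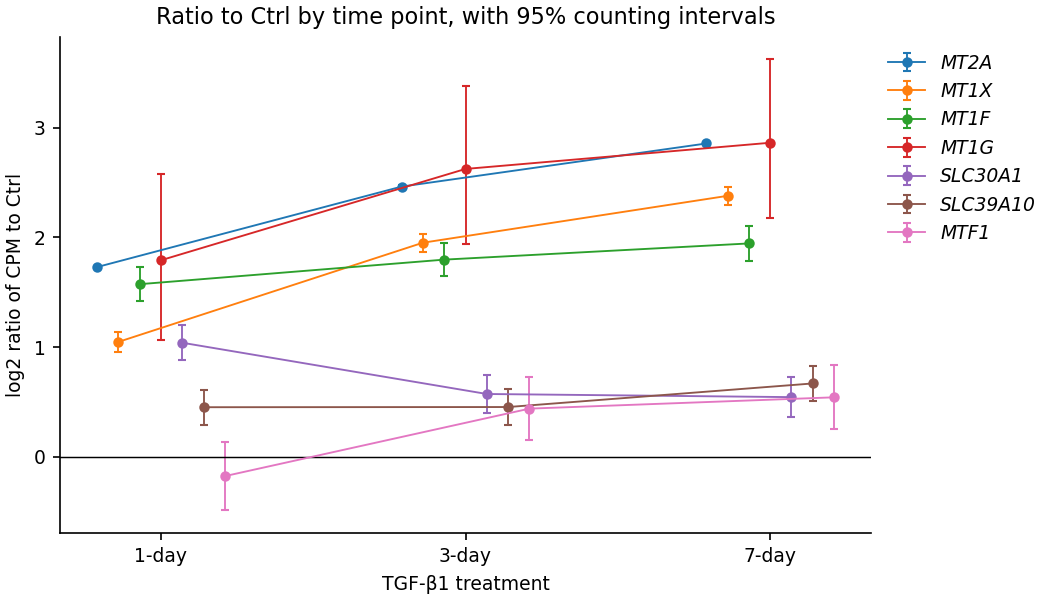
Log2 ratio of the level to that in Ctrl (y axis) at 1, 3 and 7 days of TGF-β1 treatment (x axis) for 7 genes, with exact conditional 95% counting intervals and the line at 0 marking the Ctrl level. Ratios of *MT2A*, *MT1X* and *MT1F* are larger at each later time point, with *MT2A* at 2.85 at 7-day. *MT1G* is at 2.86 at 7-day (2.17 to 3.62), where its interval overlaps that of 3-day (1.94 to 3.38). *SLC30A1*, in contrast, is at 1.04 at 1-day and at 0.54 at 7-day.

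The distribution over cells showed where the *MT2A* difference lay. In cells thinned to 18000 UMIs, the median Ctrl cell had 34 *MT2A* UMIs, and the median 1-day, 3-day and 7-day cells had 116, 199 and 236. The middle 90% of cells ran from 2 to 103 UMIs in Ctrl, from 25 to 286 at 1-day, from 79 to 421 at 3-day and from 87 to 590 at 7-day. Above the Ctrl median lay 92.3% of 1-day cells, 98.8% of 3-day cells and 99.5% of 7-day cells, beside 49.2% of Ctrl cells. Different cells were read at each time point, so a change within single cells cannot be read from these shares. In the other direction, 26 of 844 Ctrl cells (3.08%, exact binomial interval 2.02% to 4.48%) exceeded the 1-day median and 2 (0.237%, 0.0287% to 0.853%) exceeded the 7-day median. The 3-day and 7-day distributions overlapped widely, and 34.9% of 3-day cells exceeded the 7-day median.

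Ctrl cells varied most relative to their mean. The coefficient of variation of *MT2A* over thinned cells was 0.879 before treatment and 0.648, 0.498 and 0.563 after 1, 3 and 7 days. In Ctrl 7 of 933 cells had no *MT2A* UMI, and no cell of the treated libraries was without one. The 10% of cells with most *MT2A* held 32.4% of its Ctrl UMIs, and 26.2%, 24.2% and 26.6% of those in the treated libraries. In 7-day cells the level differed by cell cycle phase, with 18933 CPM in G1 cells, 14013 CPM in S cells and 13716 CPM in G2M cells. In the Ctrl, 1-day and 3-day libraries, in contrast, G1 cells had the lowest level. At 1-day they had 6815 CPM against 8720 and 8325 CPM in S and G2M cells. The Ctrl values were 1992 against 2281 and 2219 CPM. The 3-day values were 11790 against 11890 and 12479 CPM, where the intervals of G1 and S cells overlap. Phases were called from RNA alone, and the difference of this order between libraries was not tested.

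The less abundant genes were detected in a part of the cells. At equal depth *MT1X* was detected in 50.9% of Ctrl cells and in 70.1%, 88.2% and 92.0% of 1-day, 3-day and 7-day cells (65.2%, 83.0%, 97.6% and 97.5% before thinning). *MT1F* was detected in 23.2%, 49.7%, 58.3% and 59.9% of thinned cells (34.0%, 69.6%, 81.7% and 85.4% before). Before thinning, single 7-day cells held up to 138 *MT1X* UMIs against a median of 8, and single 1-day cells up to 50 against a median of 2. The 10% of cells with most *MT1X* held 35.1% to 38.1% of its UMIs in each library. Without the 10 cells of each library with most *MT1X* UMIs its 7-day log2 ratio was 2.27. *MT1G* was detected in 1.54%, 3.00%, 7.09% and 9.29% of thinned cells.

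*SLC30A1* was detected in 23.5% of thinned Ctrl cells and in 40.8%, 32.6% and 32.1% of 1-day, 3-day and 7-day cells (36.1%, 59.4%, 58.3% and 57.3% before thinning). The lower 3-day and 7-day levels are thus seen in the share of cells only at equal depth. For *SLC39A10* the thinned shares were 26.2%, 34.1%, 32.6% and 37.9%, and for *MTF1* they were 10.7%, 8.44%, 10.6% and 12.6%. All cells are of 1 line, so no cell type that should lack these genes was present to give the share that free RNA alone would produce, and that share was not measured.

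**Figure D3:**
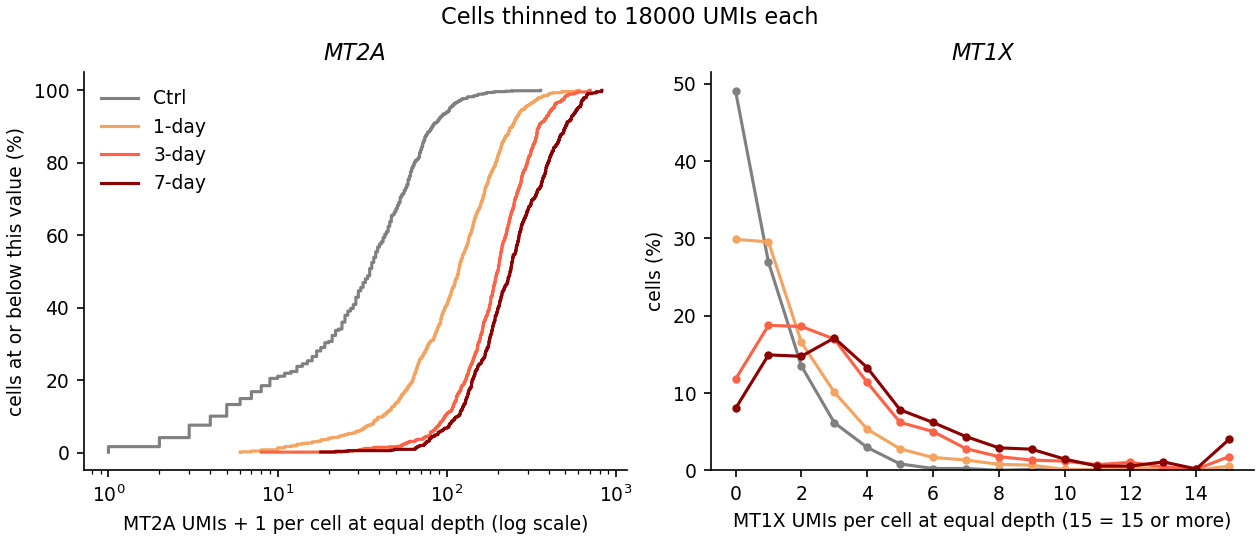
Cells thinned to 18000 UMIs each: the left panel gives the share of cells (y axis, %) at or below a number of *MT2A* UMIs plus 1 (x axis, log scale), and the right panel the share of cells (y axis, %) with each number of *MT1X* UMIs (x axis, 15 standing for 15 or more), 1 line per library. The *MT2A* curves differ in position, with medians of 34 UMIs for Ctrl and 236 for 7-day cells, and also in shape. On the log scale the Ctrl and 7-day curves lie further apart at low than at high shares of cells. The coefficient of variation of *MT2A* is 0.879 in Ctrl and 0.563 at 7-day. Cells without *MT1X* are most frequent in Ctrl.

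Co-expression was examined within each library, as the Pearson r over cells of log-normalized levels. Cells of a library share their source, so r is a description and has no p. *MT2A* and *MT1X* went together in every library, with r of 0.38 before treatment and 0.39, 0.39 and 0.50 after 1, 3 and 7 days (0.35, 0.34, 0.35 and 0.42 in thinned cells). Whether *MT2A* reads counted for *MT1X* add to this r was not tested. *MT2A* and *MT1F* had r of 0.20, 0.17, 0.05 and 0.16. The median r over the 6 pairs of *MT2A*, *MT1X*, *MT1F* and *MT1G* was 0.155, 0.148, 0.077 and 0.148, where the limit that left out genes seen in under 1% of cells was set after the values were seen. Counts of *MT1F* and *MT1G* are sparse, and weak values of r for them are no finding.

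The same can be seen as levels. In the 25% of Ctrl cells with the smallest share of *MT2A* UMIs, *MT1X* was at 22.8 CPM, and in the 25% with the largest share it was at 76.3 CPM. In 7-day cells these 2 groups had 146 and 410 CPM of *MT1X*. *MT1F* went from 7.39 to 20.2 CPM in Ctrl and from 32.9 to 51.7 CPM at 1-day, but from 49.5 to 55.2 CPM at 3-day and from 43.0 to 57.2 CPM at 7-day. For *MT1X* the 3-day values were 118 and 298 CPM. Within the 3-day and 7-day libraries, cells with more *MT2A* thus had more *MT1X*. For *MT1F* no such order was seen at 3-day. Groups of 25% of these cells, from the smallest to the largest *MT2A* share, had 49.5, 50.2, 47.8 and 55.2 CPM. At 7-day such groups had 43.0, 56.7, 66.6 and 57.2 CPM of *MT1F*. The 7-day cells with the largest share thus exceeded those with the smallest by a smaller factor than for *MT1X*.

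The zinc transporters did not follow the metallothioneins from cell to cell. The r of *MT2A* with *SLC30A1* was 0.04 before treatment and -0.06, -0.01 and -0.03 after 1, 3 and 7 days. With *SLC39A10* it was 0.02, 0.01, 0.02 and -0.03, and with *MTF1* it was 0.01, 0.02, -0.01 and -0.05. In the 25% of 1-day cells with the smallest and the 25% with the largest metallothionein share, *SLC30A1* was at 34.1 CPM (30.3 to 38.3) and 30.6 CPM (26.9 to 34.7), although the metallothionein sum was at 2505 and 13954 CPM. These are sparse counts, and a weak relation could not be detected from them.

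**Figure D4:**
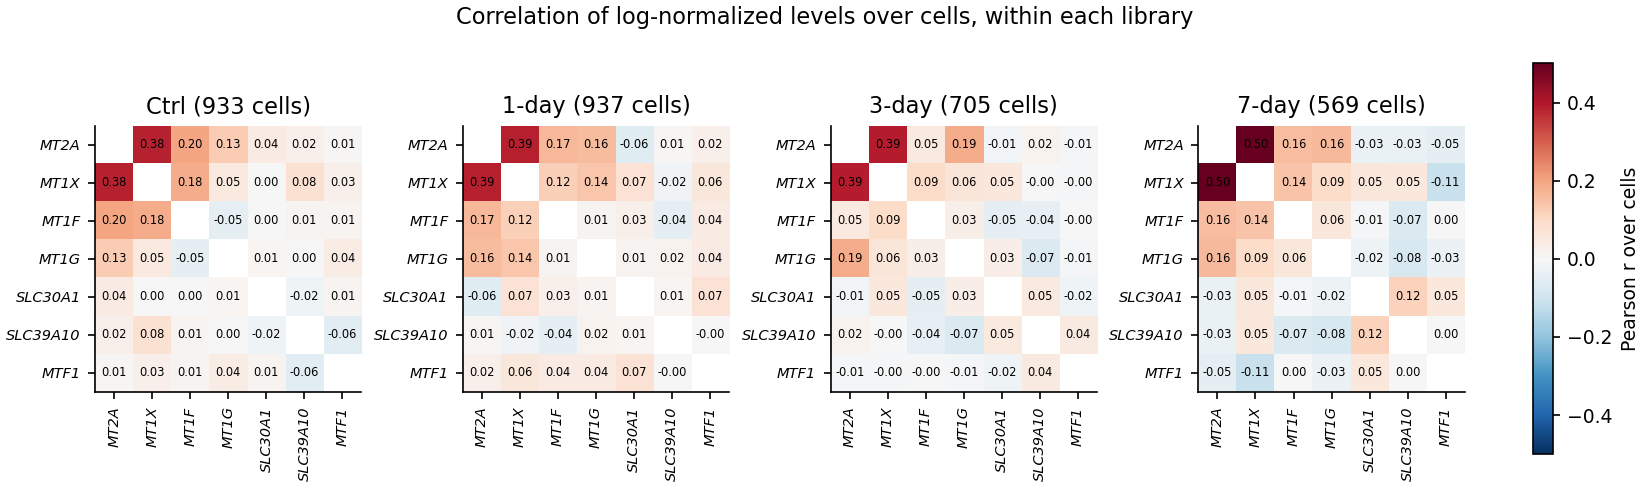
Pearson r over cells of log-normalized levels (colour scale from -0.5 to 0.5, values printed in the cells of each matrix) for pairs of 7 genes, with 1 matrix per library. *MT2A* and *MT1X* have the highest r in each library, 0.38 to 0.50, and *SLC30A1*, *SLC39A10* and *MTF1* are near 0 with *MT2A*.

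The genes whose levels were most like the metallothionein sum from cell to cell were found among 2072 genes with at least 50 CPM in every library, by the mean of r over the 4 libraries. *S100A2*, a calcium-binding protein of the S100 family, led with a mean r of 0.45, and it was followed by *FLNA*, the actin crosslinker filamin A (0.34), *DCBLD2*, a transmembrane receptor-like protein (0.31), *TMSB10*, an actin-binding thymosin (0.31), and *AMIGO2*, a cell adhesion protein (0.31). In thinned cells 4 of these were again among the leading 5, and *AMIGO2* was at rank 13. For *S100A2* r was 0.79 in untreated cells and 0.50, 0.12 and 0.39 after 1, 3 and 7 days. The metallothionein sum also varied most relative to its mean in Ctrl. Its coefficient of variation over thinned cells was 0.865, 0.643, 0.494 and 0.559 in the 4 libraries. A wider spread can raise r, so r is not compared between libraries as the strength of a relation. In the same order r was 0.66, 0.43, 0.03 and 0.21 for *FLNA* and 0.57, 0.20, 0.11 and 0.36 for *TMSB10*. It was 0.38, 0.41, 0.14 and 0.32 for *DCBLD2* and 0.27, 0.34, 0.28 and 0.34 for *AMIGO2*. In Ctrl, *S100A2* was at 1621 CPM in the 25% of cells with the smallest metallothionein share (1593 to 1650) and at 7116 CPM in the 25% with the largest (7055 to 7177). The corresponding 3-day cells had 13896 and 13831 CPM. The lowest mean r was that of *MAL2* (-0.30), which encodes a membrane traffic protein of epithelial cells, and next came *FTL*, the ferritin light chain (-0.30), at 45359 and 26932 CPM in the same groups of Ctrl cells. Over the 4 libraries r was -0.48, -0.42, -0.22 and -0.07 for *FTL* and -0.28, -0.34, -0.19 and -0.41 for *MAL2*. The groups of cells were cut by the metallothionein share itself, and *FLNA*, *S100A2* and *FTL* were looked at in them after their r had been seen.

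A reference gene of the TGF-β1 response was related to *MT2A* among cells that had received no cytokine. *PMEPA1*, a negative regulator of TGF-β signalling, had 66.8 CPM without treatment and 1501, 1385 and 962 CPM after 1, 3 and 7 days. Its r with *MT2A* was 0.42 without treatment, then 0.24, 0.10 and 0.27. In Ctrl its level was 18.4 CPM (15.6 to 21.7) in the cells with the smallest metallothionein share and 156 CPM (147 to 165) in those with the largest. *TGFBI*, an extracellular matrix protein induced by TGF-β, had r of 0.04, 0.28, -0.07 and 0.13 with *MT2A*. The metallothionein sum had r between -0.04 and 0.17 with the log of the UMIs per cell and between -0.05 and 0.08 with the mitochondrial share.

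**Figure D5:**
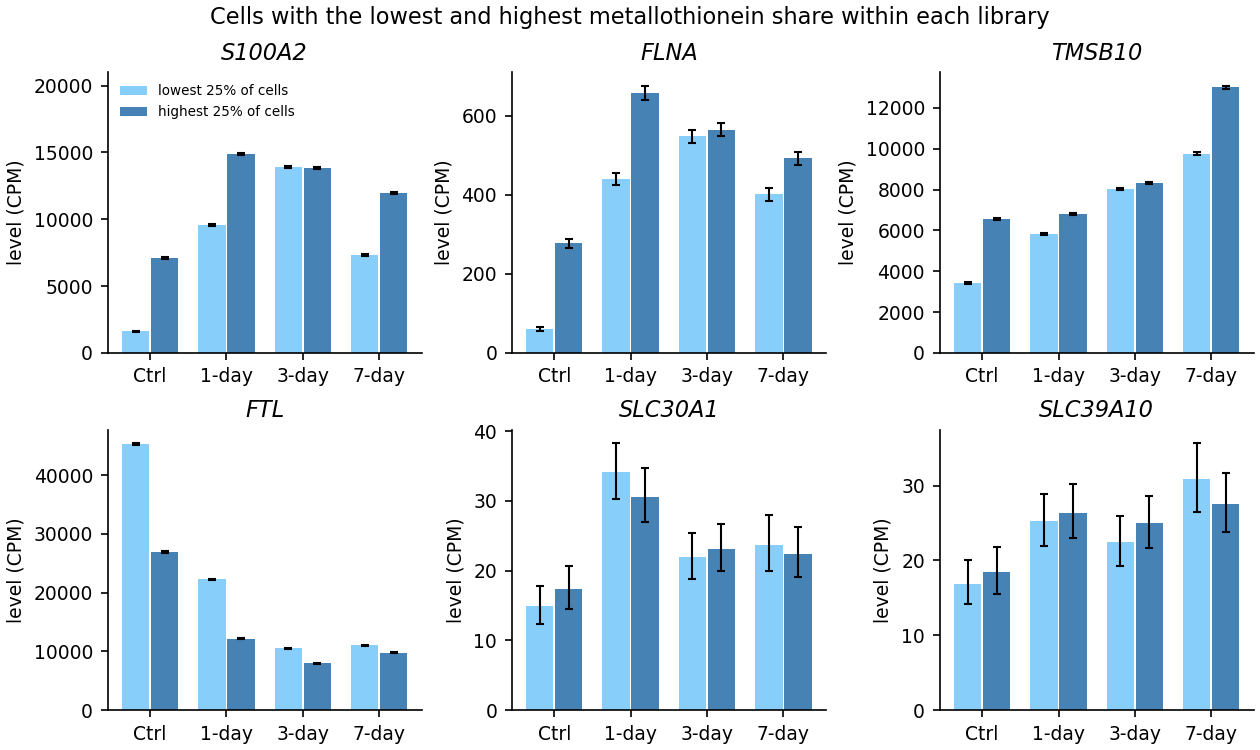
Level in CPM with exact Poisson 95% intervals (y axis, linear and on its own scale in each panel) of 6 genes in the 25% of cells with the lowest (light) and the 25% with the highest (dark) metallothionein share within each library (x axis). *S100A2* is at 1621 and 7116 CPM in the 2 groups of Ctrl cells and at 13896 and 13831 CPM in those of 3-day cells, and *SLC30A1* and *SLC39A10* have overlapping intervals in every library.

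The time course of the metallothionein sum (log2 ratios 1.72, 2.45 and 2.84) was compared with those of 3341 genes with at least 50 CPM in any library, by the root mean square difference of the 3 ratios. The nearest were *RAI14* (0.17), *OCIAD2* (0.23), *LARP6* (0.24), *TGFBR2* (0.25) and *ITGAV* (0.26). In thinned cells their ranks were 2, 4, 1, 15 and 8, so *TGFBR2* and *ITGAV* were no longer among the nearest. *OCIAD2* was at 341, 1221, 2113 and 1937 CPM in the 4 libraries and thus, unlike the metallothionein sum, highest at 3-day. *LARP6*, which binds collagen mRNAs, was at 11.2, 38.5, 54.2 and 62.6 CPM in the 4 libraries. *TGFBR2*, the type II TGF-β receptor, was at 16.5, 63.6, 114 and 130 CPM in Ctrl and at 1, 3 and 7 days. *ITGAV*, the integrin alpha V subunit, was at 45.1, 174, 234 and 248 CPM. The reference gene *TGFBI* had another course, at 14.5, 476, 471 and 301 CPM in the 4 libraries. The sum of the metallothioneins was thus highest at 7-day, when *TGFBI* and *PMEPA1* were below their 1-day levels.

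The other genes of zinc and copper handling are counted beside all genes, of which 9.34%, 10.1% and 11.8% were at least 2-fold higher and 9.31%, 5.92% and 5.29% at least 2-fold lower at 1, 3 and 7 days. Of 10 other zinc exporter genes 4 reached 10 CPM, and none of them was 2-fold higher or lower at any time point (median log2 ratios 0.02, 0.00 and 0.13). Of 13 other zinc importer genes 10 reached it, and only *SLC39A13*, encoding the importer ZIP13, was 2-fold higher, at 18.6 CPM at 3-day and 22.9 CPM at 7-day against 6.60 CPM in Ctrl. The median log2 ratio of these importers was 0.01 at 1-day, 0.41 at 3-day and 0.62 at 7-day, beside -0.06, 0.04 and 0.11 over all genes. Of 12 copper genes 10 reached 10 CPM, and 1 was 2-fold higher at 1-day and 2 at 3-day and at 7-day. These were *SLC31A2*, a copper transporter, at 10.9, 32.7, 39.5 and 28.4 CPM in the 4 libraries, and *ATOX1*, a copper chaperone, at 220, 296, 512 and 575 CPM.

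Of 10 genes of oxidative and metal stress, all of which reached 10 CPM, 1 was 2-fold higher and 1 was 2-fold lower at each time point, which is near the shares of all genes, and the median log2 ratios were -0.39, -0.13 and 0.20. The higher one was *HMOX1*, heme oxygenase 1, at 20.1, 147, 88.2 and 67.7 CPM in the 4 libraries, and the lower one was *SRXN1*, sulfiredoxin, at 13.2, 5.40, 4.79 and 3.51 CPM. *HMOX1* was highest at 1-day, when the metallothionein sum was lowest among the treated libraries. Its r with *MT2A* was 0.05 without treatment and -0.14, -0.07 and 0.24 with it. Of 10 glucocorticoid-responsive genes 5 reached 10 CPM at 1-day and 3-day and 4 at 7-day. At 1-day none was 2-fold higher (9.34% of all genes were) and 2 were 2-fold lower (9.31% of all genes were), the MAP kinase phosphatase *DUSP1* (4.61 CPM against 15.2 CPM) and the C/EBP transcription factor *CEBPD* (9.71 CPM against 33.5 CPM). *TSC22D3*, a glucocorticoid-induced leucine zipper protein, was 2-fold higher at 3-day, with 15.8 CPM against 6.40 CPM, and was at 8.43 CPM at 7-day. At 3-day 1 of the 5 was thus 2-fold higher and 1 was 2-fold lower (10.1% and 5.92% of all genes were). At 7-day none of the 4 was 2-fold higher and 1 was 2-fold lower (11.8% and 5.29% of all genes were). The lower gene was *CEBPD* at both time points, with log2 ratios to Ctrl of -1.61 and -1.11. The median log2 ratios of the glucocorticoid-responsive genes counted were -0.88, -0.30 and -0.33 at 1, 3 and 7 days. Those over all genes were -0.06, 0.04 and 0.11. Zinc was not measured, and neither were metallothionein proteins.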

How the data were processed

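RNA of single OVCA420 cells was sequenced before and after 1, 3 or 7 days of TGF-β1 (10 ng/mL), in 1 library each. The authors processed the reads with Cell Ranger (version 2.0.1 in the submitters' processing notes) on GRCh38 and deposited the UMI counts of each gene in each cell as whole numbers that were not normalized. Cells with more than 200 genes and at most 20% mitochondrial UMIs were retained. Because only the first barcodes were analysed, sums do not give the depth of a whole library. Scrublet (scanpy 1.11.5) marked 43 cells (1.37%), which were kept except in one alternative. CPM of summed UMIs have exact Poisson 95% intervals, ratios have exact conditional intervals and shares have exact Clopper-Pearson binomial intervals, all for counting error only. The intervals of CPM and of ratios leave out the spread between cells, and none covers the spread between cultures. For correlations, a count was divided by its cell's total, multiplied by 10000, increased by 1 and taken as natural log. Cell cycle phases were scored with Seurat's lists (version 5.3.0). Thinning, ratios and correlations were tested on simulated data.

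The 9 genes and the other gene lists were chosen with earlier results of these data known. From each list, the genes named had at least 10 CPM and a 2-fold ratio to Ctrl at some time point, at most 4 per list, with *TGFBI* and *PMEPA1* as references (1 further reference gene is not reported here) and the 5 leading genes of each measure of similarity. *MAL2*, *FTL*, *MT1A* and the motif letters were chosen outside this rule. Alternatives were other mitochondrial limits, doublets left out, median-of-ratios scaling, means over cells, thinning, G1 cells, the first and second part of the cells and leaving out the 10 cells of highest level. Analyses ran in Python 3.11.15 (scipy 1.17.1) and R 4.3.3.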

Additional observations from a re-analysis of the deposited data

Results flagged for a closer look

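*DUSP1*, a phosphatase gene in the list of glucocorticoid-responsive genes, was below Ctrl at 1-day (log2 ratio -1.72, counting interval -1.99 to -1.45) and above it at 7-day (0.54, 0.36 to 0.72), so its direction differed between time points. With 1 library each, this difference was not tested.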

How the results depend on the processing

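No paired analysis was possible because there is 1 library per group. The log2 ratio of the metallothionein sum to Ctrl (1.72, 2.45 and 2.84 at 1, 3 and 7 days) stayed above 0 under all 10 alternatives, with values in the order 1, 3 and 7 days. It was 1.73, 2.48 and 2.86 with a 10% mitochondrial limit, 1.80, 2.47 and 2.78 with median-of-ratios size factors, 1.69, 2.41 and 2.74 in thinned cells and 1.76, 2.55 and 3.23 in G1 cells. It was 1.67, 2.43 and 2.75 in the first part of the cells in barcode order, 1.76, 2.46 and 2.93 in the second, and 1.75, 2.48 and 2.87 without the 10 cells of highest level. At each time point the values of both parts lay outside the counting interval of the main ratio, which leaves out the spread between cells. This interval was 1.70 to 1.73 at 1-day and 2.83 to 2.85 at 7-day. At 3-day it was 2.437 to 2.461, with the parts at 2.431 and 2.464. As means of per-cell CPM the 3-day and 7-day values were 2.41 and 2.77. The 7-day value in G1 cells differed most. Of the genes at least 2-fold higher at 1-day, 2 remained with a limit of 50 CPM in place of 10. The log2 ratio of *MT1M* at 3-day changed sign, ranging from -1.09 to 0.92 on 1 or 2 UMIs, and that of *MTF1* at 3-day from 0.01 to 0.49. *SLC30A1* at 1-day ranged from 0.72 to 1.12. Depth limits *MT1E*, *MT1M*, *MT1G* and *MTF1* most.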
